A study of Mus musculus with 6 samples.

Results

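The immunoglobulin heavy chain genes were taken as every gene in the 4 LSK expression files whose symbol names a V, D or J segment of Igh or one of its constant regions (Ighm, Ighd, Igha, Ighe and the Ighg genes). The rule used symbols alone and no measured value. It gave 122 of 14468 genes: 104 V segments, 6 D segments, 4 J segments and 8 constant region genes. All 122 lie on mouse chromosome 12, at chr12:113254830-116000461 of build mm10, and RefSeq's gene types list 7 of the V segments as pseudogenes. LSK cells (Lin- Sca-1+ c-Kit+) are the bone marrow fraction that holds the blood stem cells and early multipotent progenitors. They were sorted from C57BL/6 mice that were either wild type (WT) or carried a knockout of Setd2 (KO), the enzyme that trimethylates lysine 36 of histone H3. Samples of both genotypes are dated from the induction with pI-pC, a synthetic double-stranded RNA, at 4 weeks (young) or 8 months (old). The driver of the deletion, and how many mice stand behind a library, are not given in the sources used here. Each of the 4 groups had 1 library of total RNA, so no value below has a replicate check, an SD or a p-value, and each difference describes these libraries.

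The heavy chain locus is assembled during B cell development: a D segment is first joined to a J segment, then a V segment to the DJ unit. The V exon is transcribed together with the nearest constant region, first that of Ighm. Class switching later replaces it with an Ighg, Ighe or Igha constant region. Which V segment an antibody carries is largely fixed for the descendants of a cell. Different rearrangements can share a V segment, so V use does not count rearrangements. Unrearranged V segments and constant regions can also be transcribed in cells that make no antibody, and a level per gene does not separate such transcripts from those of an assembled chain. No sequences are printed, since the reference tables used here hold none for these genes.

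Values are FPKM, the count of read fragments per kilobase of a transcript relative to the library total, multiplied by 1 factor per library so that the median gene is level (scaled FPKM). The files list genes from 0.5 FPKM upward, and a segment below that is called not listed. From the spacing of low values, 1 counted unit on 350 bp corresponded to 0.298 FPKM in WT and 0.316 in KO of the young pair, and 0.160 and 0.158 in the old pair. The counted length could be recovered for 52 of the 74 V segments listed in 3 or more libraries. These had a median of 15 units in WT and 14.5 in KO of the young pair, and 918 and 99.5 in the old pair. Whether a unit is a read or a fragment is not stated, and a unit was taken as 2 steps of the spacing in the young libraries and 1 in the old ones. The young units and their intervals rest on that choice, so units are not compared across ages. Intervals given below are 95% counting intervals and cover neither duplicate reads nor differences between mice. The Setd2 level was 14.1, 12.4, 15.3 and 15.5 (young WT and KO, then old WT and KO), so the gene level does not separate the genotypes. Which exons were deleted is not stated in the sources used here. Xist was listed only in the old pair and Eif2s3y, a gene of the Y chromosome, only in the young pair. Age therefore cannot be told apart from the sex of the mice or any other difference that goes with it, and the comparisons below are made mainly within an age.

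Heavy chain transcripts were present in all 4 LSK libraries and were most abundant in old WT. They made up 0.238% of summed FPKM in WT and 0.310% in KO of the young pair, and 7.98% and 1.69% in the old pair. The KO share was thus 1.299-fold the WT share in the young pair and 0.212-fold in the old pair. The summed scaled FPKM of the V segments was 345, 505, 17938 and 3218 in the same order. The constant regions summed to 140, 201, 7099 and 1199. The ratio of these V and constant region sums lay between 2.47 and 2.68 in all 4 libraries, although the sums themselves spanned more than an order of magnitude. In this bulk measurement, fewer cells of a type and less RNA per cell cannot be told apart.

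The number of segments above the file limit followed the same order. Of the 122 genes, 78 were listed in WT and 85 in KO of the young pair, and 118 and 96 in the old pair, and 70 were listed in all 4. Among the 104 V segments the counts were 67, 73, 103 and 80, with 60 in all 4. There were 19 V segments listed in old WT alone, with a median of 2.08 and a highest value of 64.8 (Ighv2-6). No V segment was listed in any other library alone. Ighv5-2, among these 19, stood at 2.08 in old WT. Ighv6-7 was the only V segment not listed in old WT; it had 3.85 in young WT and 0.632 in young KO. When the values of each library were multiplied down to the smallest V sum and the limit of 0.5 was applied again, the listed genes numbered 78, 83, 80 and 79 (young WT and KO, then old WT and KO). After this rescaling the 4 libraries listed nearly the same number. The rescaling lowered values without sampling counts, so it did not match the libraries in counting noise.

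The constant region gene with the highest level differed between libraries. Igha, the constant region of IgA, the main class at mucosal surfaces, lies at chr12:113254830-113260236, farthest from the V segments. It had 47.6 scaled FPKM in WT and 46.9 in KO of the young pair, and 5796 and 480 in the old pair. The 2 young values were nearly equal, old WT was 12.1-fold above old KO, and both old libraries were above both young ones. Ighm, the constant region of IgM and the first class a B cell makes, lies at chr12:113418558-113422730. It had 66.3, 138, 490 and 649 (young WT and KO, then old WT and KO). The KO library was the higher at both ages, by 2.09-fold in the young pair and 1.33-fold in the old pair. Ighm was thus higher in old KO than in old WT while the summed constant regions were 5.92-fold lower there.

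**Figure D1:**
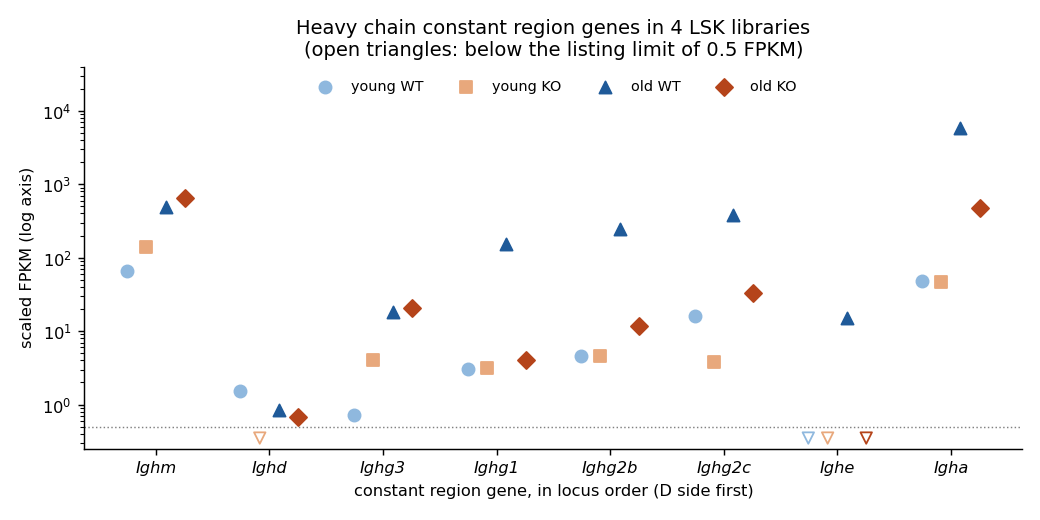
Level of each heavy chain constant region gene (scaled FPKM, log axis) in the 4 LSK libraries, 1 point per library. Igha stands at 5796 in old WT against 480 in old KO, while Ighm stands at 490 and 649.

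The Ighg genes encode the IgG subclasses. Ighg1 had 3.07 in WT and 3.18 in KO of the young pair, and 154 and 3.99 in the old pair, so old WT stood alone, 38.6-fold above old KO. Ighg2b had 4.62, 4.63, 247 and 11.6, and was 21.3-fold higher in old WT than in old KO. For Ighg1 and Ighg2b the young difference was close to 0 and its sign changed without scaling, which shifts the median of all measured young genes by -0.10 on the log2 scale. Ighg2b also changed sign with upper-quartile scaling. Ighg2c, the counterpart of Ighg2a in C57BL/6 mice, had 15.9, 3.80, 378 and 33.1. It was lower in KO at both ages, by 4.19-fold in the young pair and 11.4-fold in the old pair. Ighg3, a subclass typical of responses to polysaccharides, had 0.726, 4.06, 18.3 and 20.7. Like Ighm it was the higher in KO at both ages, by 5.60-fold and 1.13-fold, although its young WT value was close to the file limit. Summed, the Ighg genes had 24.3, 15.7, 797 and 69.4.

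Ighd and Ighe were scarce. Ighd, whose product IgD is carried beside IgM by mature naive B cells, had 1.55 in young WT, 0.840 in old WT, 0.684 in old KO, and was not listed in young KO. Ighe, the constant region of IgE, was listed in old WT alone, at 14.9, 29.2-fold above the file limit of old KO. As shares of the constant region sum, Igha held 34.1% in WT and 23.3% in KO of the young pair, and 81.7% and 40.02% in the old pair. Ighm held 47.4%, 68.9%, 6.90% and 54.1%, and the Ighg genes together 17.4%, 7.81%, 11.2% and 5.79%. Old WT was thus the library led by Igha, with 11.8 times as much Igha as Ighm, and the other 3 were led by Ighm. The ratio of Igha to Ighm was 0.719 in young WT, 0.339 in young KO and 0.739 in old KO, lower in KO than in WT at both ages.

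The J segments, short exons between D and Ighm, differed less between the libraries than V and constant regions did. Their summed level was 36.4 in WT and 28.2 in KO of the young pair, and 151 and 61.1 in the old pair, so old WT was 2.47-fold above old KO, against 5.57-fold for the V sum. In counted units, Ighj1 to Ighj4 had 5, 10, 5 and 4 in young WT and 3, 6, 2 and 5 in young KO. In old WT they had 18, 30, 30 and 75 and in old KO 10, 24, 12 and 22. Units are not corrected for length, and Ighj2 has the longest counted length of the J segments, which raises its units. In scaled FPKM, Ighj4 was the highest J segment of both old libraries. It had 79.2 in old WT and 23.0 in old KO, against 16.8 and 13.3 for Ighj2. In young WT, Ighj2 had 9.62, against 9.26 for Ighj1 and 10.2 for Ighj3. Ighj4, the J segment nearest to Ighm, held 49.0% of the J units in old WT (exact binomial interval 40.9 to 57.2) and 32.4% in old KO (21.5 to 44.8). These 2 intervals overlap, which does not show that the shares are alike, and the difference was not tested. With 24 and 16 J units the young libraries give no usable order of J use.

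The D segments were at the limit of detection. Young WT listed none of them, young KO 2, old WT 3, old KO 5. Each listed value equalled exactly 1 counted unit, and the short D length turns 1 unit into up to 10.2 scaled FPKM (Ighd4-1 in young KO). Ighd4-1 and Ighd1-1 were listed in young KO, old WT and old KO, Ighd2-7 in old WT, and Ighd2-3, Ighd2-4 and Ighd2-8 in old KO. A value of 1 unit supports no comparison between libraries.

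V families group segments of similar sequence and are numbered in the symbol. Family 1, the largest in the mouse, with 53 of the 104 V segments here, led every library. It held 56.9% of the V sum in WT and 54.9% in KO of the young pair, and 63.6% and 78.5% in the old pair. The old KO value rests on 1 segment, Ighv1-81: without it, family 1 held 61.3% of the rest. Family 5, which with family 2 lies near the D segments, held 7.60%, 9.07%, 9.20% and 2.49%. Family 6, whose highest segment by the mean of the 4 libraries was Ighv6-3, held 9.19% in young WT and 6.02% in old WT, and 1.69% and 2.03% in the corresponding KO libraries. Both KO values lay below both WT values. The shares of families 11 and 12 went the other way within each age, but each family is 1 segment here, Ighv11-2 and Ighv12-3. Family 11 held 4.94% in young WT and 12.4% in young KO, then 0.695% in old WT against 3.19% in old KO. In the old pair only its share was higher in KO, since its scaled FPKM was 125 in WT and 103 in KO. Family 12 held 0.403% and 4.43% in young WT and KO, then 0.0108% and 0.413% in old WT and KO. Families 11 and 12 are known from antibodies of B-1 cells, a self-renewing B cell subset, that bind phosphatidylcholine.

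**Figure D2:**
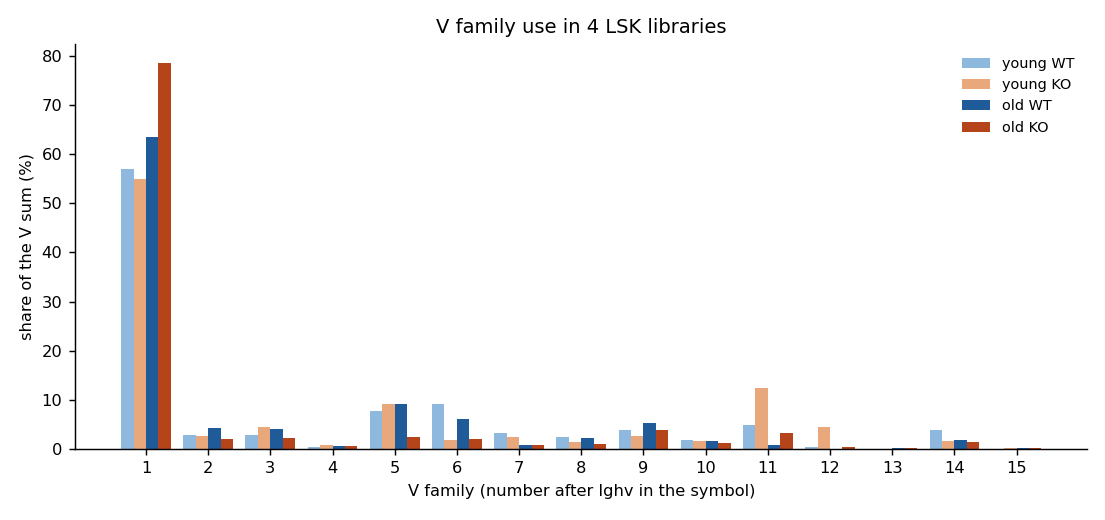
Share of the V sum (%) held by each V family in the 4 LSK libraries, 1 bar per library, from 0. Family 1 leads throughout and reaches 78.5% in old KO. Families 11 and 12, of 1 segment each, hold a larger share in KO than in WT at each age.

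The other families held small shares, and the segment named for each is its highest by the mean of the 4 libraries, which need not be the highest in every one. Family 9 (Ighv9-3) held 3.81%, 2.58%, 5.18% and 3.78% (young WT and KO, then old WT and KO). Family 14 (Ighv14-2) held 3.83%, 1.51%, 1.87% and 1.296%. Family 3 (Ighv3-6) held between 2.24% in old KO and 4.52% in young KO. Family 2 (Ighv2-2) held between 2.09% in old KO and 4.21% in old WT, and family 8 (Ighv8-8) between 1.01% in old KO and 2.36% in young WT. Family 10 (Ighv10-1) held 1.88%, 1.60%, 1.56% and 1.27%. Family 7 held 3.14%, 2.45%, 0.80% and 0.78%. Families 4, 13 and 15 (Ighv4-1, Ighv13-2 and Ighv15-2) each stayed below 1% in every library.

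V use was spread over many segments in 3 of the libraries and dominated by 1 segment in old KO. The effective number of V segments (the exponential of the Shannon entropy of their shares, which would equal the number of segments if all were level) was 45.3 in WT and 38.6 in KO of the young pair, and 46.9 and 16.2 in the old pair. Pielou evenness, the same entropy relative to its maximum for the segments listed, was 0.907, 0.851, 0.830 and 0.636. The V segments needed to reach 50% of the V sum numbered 13, 9, 12 and 3. The 10 highest segments held 43.9%, 54.1%, 47.0% and 71.4%. Old WT and young WT thus had nearly the same effective number, although the V sum of old WT was larger by over an order of magnitude. KO was the lower at both ages, by a small step in the young pair and a large one in the old pair.

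**Figure D3:**
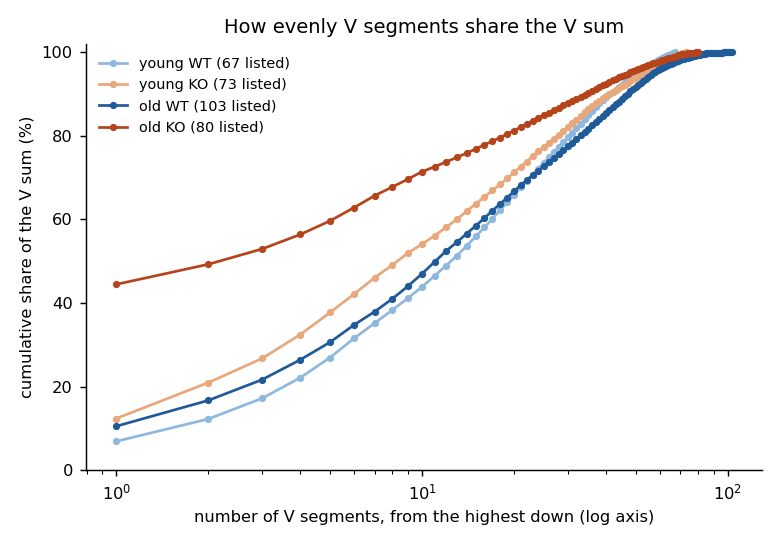
Cumulative share of the V sum (%) against the number of V segments counted from the highest down (log axis), 1 line per LSK library. The old KO line starts at 44.5%, while the other 3 start between 6.88% and 12.4%.

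The leading segment of old KO was Ighv1-81, at chr12:115920279-115920712 near the far end of the V cluster. It held 44.5% of the V sum there. Over the 52 segments with counted units its share of units was 47.5% (exact binomial interval 46.8 to 48.2). It stood 9.26-fold above the next segment, Ighv1-53 with 4.80%, and Ighv1-77 followed with 3.68%. Without Ighv1-81 the effective number of V segments in old KO was 43.8, close to the 50.6 of old WT without its own leading segment. Ighv1-81 was also the leading segment of old WT, at 10.5% of the V sum, ahead of Ighv1-64 with 6.18% and Ighv6-3 with 4.97%. There it was 1.70-fold above the next segment. Its scaled FPKM was 18.5 in WT and 10.3 in KO of the young pair, and 1884 and 1431 in the old pair. Its level was high in both old libraries and 0.759-fold in KO relative to WT (counting interval 0.738 to 0.781). The larger share in old KO thus came with a lower level of Ighv1-81 and a V sum 5.57-fold lower. Leaving Ighv1-81 out, the V sum of old KO was 8.98-fold lower than that of old WT.

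The young libraries had different leading segments. In young WT the V sum was led by Ighv6-3 with 6.88%, Ighv1-81 with 5.36% and Ighv1-26 with 4.95%. In young KO it was led by Ighv11-2 with 12.4%, Ighv1-15 with 8.59% and Ighv1-64 with 5.79%. The leading segment stood 1.28-fold above the next one in young WT and 1.44-fold in young KO. Ighv1-26, which was among the 4 highest of both young libraries, had 17.1, 28.9, 750 and 105 scaled FPKM (young WT and KO, then old WT and KO).

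**Figure D4:**
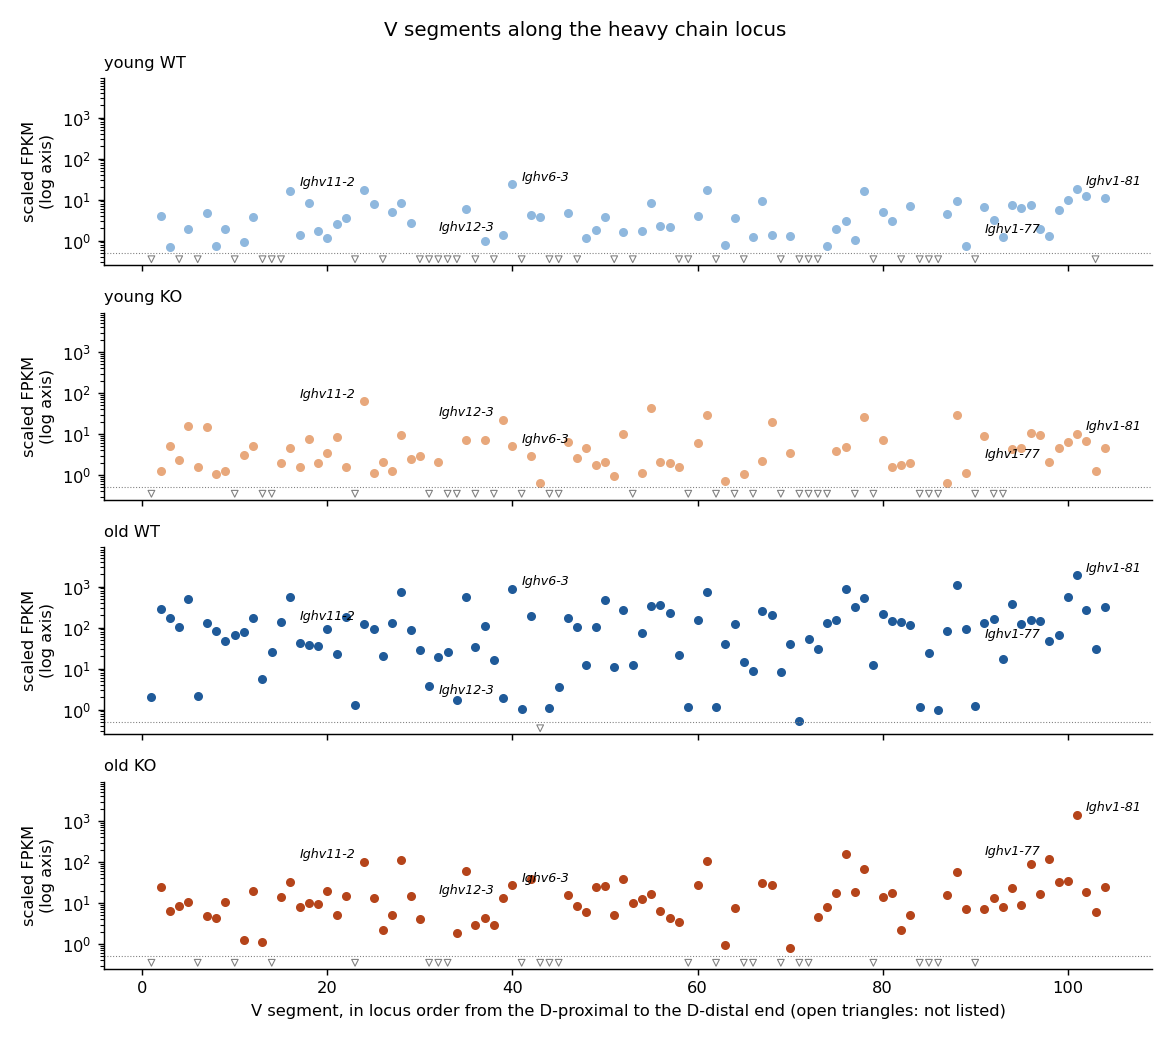
Level of each of the 104 V segments (scaled FPKM, log axis) in locus order from the D-proximal end (left) to the D-distal end, with 1 panel per LSK library and open triangles for segments that were not listed. In old KO, Ighv1-81 at 1431 stands above every other segment, while Ighv11-2 at 103 and Ighv1-77 at 118 stand above the panel's median of 13.3.

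Transcripts came from the whole V cluster in each library. Split by position into the 35 segments nearest D, the next 35 and the 34 farthest from D, the V sum of young WT divided into 29.0%, 29.0% and 42.0%. In young KO the shares were 34.3%, 35.4% and 30.3%, and in old WT they were 25.6%, 28.0% and 46.3%. In old KO they were 16.3%, 14.6% and 69.2%. With Ighv1-81 left out, they were 29.3%, 26.2% and 44.5% in old KO and 28.7%, 31.3% and 40.04% in old WT. Young KO had the smallest D-distal share of the 4 libraries.

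In the young pair, V segments were scattered to both sides rather than shifted together. A segment was counted as 2-fold changed when its log2(scaled FPKM + 1) differed by 1 or more between KO and WT, among those at 1 or more in at least 1 of both libraries. Of 89 heavy chain genes measured in the young pair, 25 (28.1%) were 2-fold higher in KO, against 1.01% of all genes tested, and 13 (14.6%) were 2-fold lower, against 0.701%. The higher ones were 21 V segments, 2 D segments and the constant regions Ighm and Ighg3, and the lower ones 12 V segments and Ighg2c. Ighv2-3, Ighv5-16, Ighv9-1, Ighv14-4, Ighv7-4, Ighv1-4 and the 2 D segments were not listed in young WT, nor the lower Ighv1-34 and Ighv8-12 in young KO. Their calls rest on the limit value. The shares over all genes include the heavy chain genes. How far counting scatter adds to these calls was not tested. The median difference over the 89 was 0.25 and that over all genes 0.00. Among 61 V segments listed in both young libraries, 33 were higher in KO and the ratio of KO to WT had a median of 1.19 and a range of 0.144 to 16.1. The counting interval of the ratio lay above 1 for 12 and below 1 for 9 of the 46 that had one. For the remaining 25, the difference was not detectable at this depth.

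Among the V segments most above WT in young KO, Ighv12-3 and Ighv5-6 rested on few WT units. Ighv12-3 (chr12:114366521-114366954) had 1.39 scaled FPKM in young WT and 22.4 in young KO, from 5 and 70 units, a ratio of 16.1 (6.57 to 51.1). Ighv5-6 (chr12:113625506-113625956) had 1.95 and 15.3, from 7 and 48 units, a ratio of 7.88 (3.54 to 20.6). Ighv1-15 had 8.39 and 43.4, from 30 and 135 units, a ratio of 5.17 (3.46 to 7.96). These 3 intervals lay well above 1. Ighv1-42 had 1.37 and 19.8 and Ighv1-9 had 1.65 and 10.2, with no counted units for either. Ighv11-2 (chr12:114048241-114048812), the leading segment of young KO, had 17.0 and 62.4, from 80 and 255 units.

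Lower in young KO were Ighv14-3, Ighv6-3, Ighv1-39, Ighv5-17 and Ighv1-61. Ighv6-3 (chr12:114391712-114392169), the leading segment of young WT, had 23.7 in WT and 5.07 in KO, from 86 and 16 units, a ratio of 0.214 (0.117 to 0.367). Ighv14-3 had 7.87 and 1.13, a ratio of 0.144. Ighv5-17 had 15.995 and 4.45, Ighv1-39 had 9.23 and 2.25, and Ighv1-61 had 6.99 and 1.93. All 5 had a counting interval below 1.

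In the old pair nearly the whole locus was lower in KO. Of 118 heavy chain genes measured, 92 (78.0%) were 2-fold lower in old KO, against 2.66% of all genes tested. The 92 held 84 of 101 measured V segments, 5 of 7 measured constant regions, 2 J segments and 1 D segment. Only 5 (4.24%) were 2-fold higher, against 1.65% of all genes tested: Ighv12-3, Ighv1-77 and 3 D segments that had 1 counted unit each. The median difference was -2.79 over the 118 genes and -2.97 over the V segments, against 0.00 over all genes. For the 80 V segments listed in both old libraries, the ratio of WT to KO had a median of 8.67, a lower quartile of 5.04 and an upper quartile of 16.8. The counting interval of the KO to WT ratio lay below 1 for 50 of 52 V segments and above 1 for the other 2, Ighv12-3 and Ighv1-77.

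**Figure D5:**
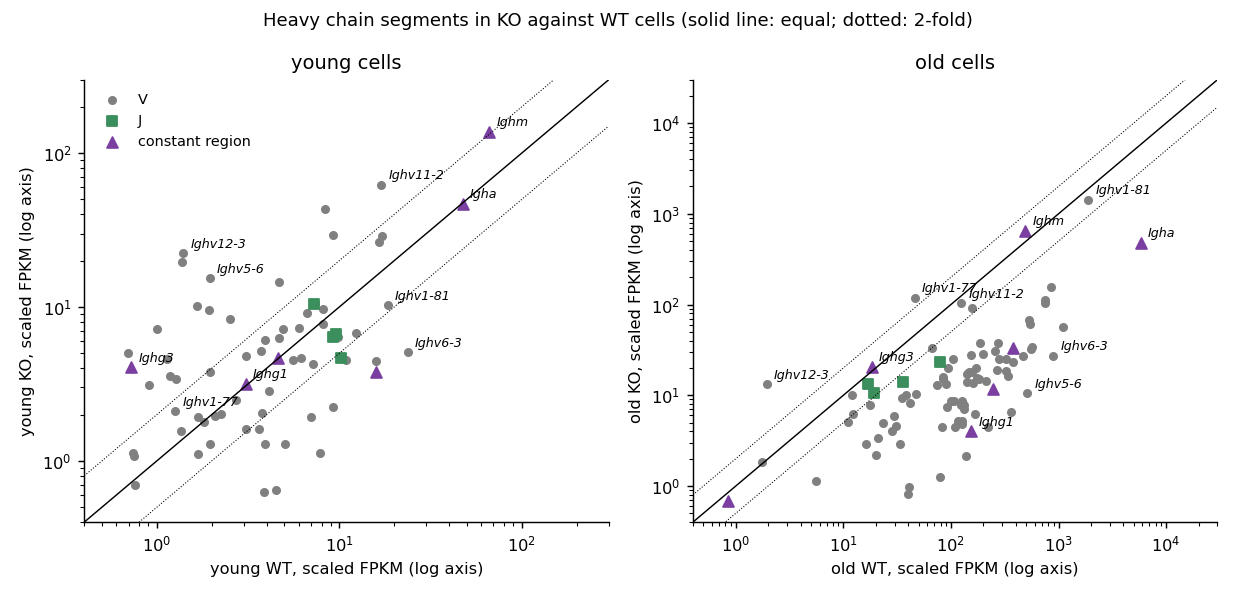
Heavy chain genes in KO (y axis) against WT (x axis) LSK cells of the young pair (left) and the old pair (right), in scaled FPKM on log axes, for genes listed in both, with V segments, J segments and constant regions marked apart. Young V segments scatter around the line of equality, and in the old pair 92 of 118 measured heavy chain genes are 2-fold lower in KO, with Ighm, Ighg3, Ighv12-3, Ighv1-77 and, barely, Ighv3-5 above the line.

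The size of the old difference varied widely between V segments. Ighv1-59 had 137 in old WT against 2.16 in old KO, the highest ratio of WT to KO at 63.4. Ighv1-18 had 364 and 6.48, Ighv5-6 had 510 and 10.6, and Ighv1-19 had 221 and 4.43. Ighv2-6 had 64.8 in old WT and was not listed in old KO, where it was at least 127-fold below. Ighv6-3 had 892 and 27.3, a ratio of 32.6 (28.0 to 38.2), and was thus lower in KO at both ages. At the other end, Ighv11-2 had 125 and 103, with a KO to WT ratio of 0.824 (0.751 to 0.904), and Ighv1-11 had 12.02 and 10.1. Ighv1-81, Ighv11-2 and Ighv1-11 were the segments closest to equality among those below it at 5 or more. Ighv1-77 (chr12:115861867-115862355) had 46.2 in old WT against 118 in old KO, from 284 and 733 units, a ratio of 2.56 (2.23 to 2.95). Its young values were 1.26 and 2.09, from 4.5 and 6.5 units, with an interval that included 1. Ighv12-3 had 1.94 in old WT against 13.3 in old KO, from 12 and 83 units, a ratio of 6.86 (3.73 to 13.8). Ighv3-5, at 1.75 and 1.82, was the third V segment above equality.

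The 2-fold calls of the young and old pairs were also set side by side. Of 87 heavy chain genes measured in both pairs, 18 were 2-fold higher in young KO and 2-fold lower in old KO, and 12 were 2-fold lower at both ages. Ighv12-3 was the only one 2-fold higher at both. None was 2-fold lower in young KO and 2-fold higher in old KO. No such count was made over all genes, so these numbers have no background share. In the old pair 78.0% of the measured heavy chain genes were 2-fold lower in KO. Most genes called in young KO therefore fall among those, whichever their young direction. The 12 lower at both ages were Ighg2c and 11 V segments, Ighv6-3, Ighv5-17, Ighv14-3, Ighv1-39 and Ighv1-61 among them. Between the WT libraries, all 66 V segments listed in both were higher in old WT.

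Across the 60 V segments listed in all 4 libraries, log2 levels were only loosely related between libraries. Pearson's r was 0.41 between young WT and young KO, 0.58 between young WT and old WT, 0.57 between young WT and old KO and 0.55 between old WT and old KO. It was 0.40 between young KO and old KO and 0.26 between young KO and old WT, the lowest of the 6 pairs. Spearman's rho ran from 0.39 to 0.60 over the same pairs. These correlations are over segments of 1 locus and are descriptions, since the segments share the library and are not independent. Over the 4 libraries, the V segments whose pattern was most like that of Igha were Ighv13-2, Ighv7-3 and Ighv8-5, but the median r with Igha over all V segments was itself 0.94, so these do not stand apart. Those most like Ighm were Ighv1-77 (r = 0.97), Ighv3-5 (0.96) and Ighv1-75 (0.95), against a median of 0.69. Ighv13-2, Ighv8-5 and Ighv3-5 were not listed in either young library, so their r rests on limit values there. Ighv1-75 had 7.37, 10.6, 156 and 91.7 (young WT and KO, then old WT and KO), a smaller old difference than most V segments.

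The partners of the heavy chain were lower in old KO in most cases. Light chain segments as a whole made up 0.378%, 0.551%, 18.8% and 2.94% of summed FPKM (young WT and KO, then old WT and KO), 1.59 to 2.35 times the heavy chain share. Of the 12 partner genes chosen, 7 of 10 measured in the old pair were 2-fold lower in KO, against 2.66% of all genes tested. None was 2-fold higher, and the median was -2.94. Igkc, the kappa light chain constant region, had 533, 820, 39780 and 5285. Jchain, which joins IgA or IgM units into polymers, had 13.0, 19.7, 1891 and 141. Cd79a, the signalling partner of membrane antibody, had 23.4 in old WT against 3.84 in old KO and was not listed in the young libraries. In the young pair none of 8 measured partners was 2-fold changed, with a median of 0.52. Over all genes tested there, 1.01% were 2-fold higher and 0.701% lower. Vpreb1 and Igll1, the surrogate light chain of early B cell precursors, were listed in old KO alone, at 0.824 and 1.62.

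Markers of antibody-secreting plasma cells moved with the heavy chain genes in the old pair. Of 12 such markers, 11 were 2-fold lower in old KO, against 2.66% of all genes tested, with a median of -2.22. The exception was Cd38, at 1.37 in WT and 1.77 in KO. The lists share genes, so their counts are not independent. Jchain and Mzb1 are also among the partners above, and Cd79a, Cd79b, Vpreb1 and Igll1 are both partners and early B cell markers. The summed level of the 12 was 53.2 in WT and 73.9 in KO of the young pair, and 2235 and 222 in the old pair, most of it Jchain. Sdc1 (CD138) had 1.65, 1.49, 14.5 and 2.75, and Mzb1 had 2.60, 4.98, 106 and 11.2. Of the 9 measured in the young pair, Derl3 alone was 2-fold higher, against 1.01% of all genes tested, and the median was 0.56. The summed level of the early B cell markers was 126, 78.2, 172 and 150, most of it Dntt. Of them 1 of 11 measured in the old pair, Cd79a, was 2-fold lower, against 2.66% of all genes tested. Of the 6 mature B cell markers, Ms4a1 (CD20), Cd22, Cr2 and Fcer2a were not listed in any library, and Cd74 and H2-Aa, which other antigen-presenting cells also express, were listed in all 4. Granulocyte markers moved the opposite way, with a summed level of 36.3 in old WT against 272 in old KO. All 5 of them were 2-fold higher in KO, against 1.65% of all genes tested. In the young pair 2 of 3 erythroid markers were 2-fold higher in KO, against 1.01% of all genes tested, with summed levels of 74.6 and 273. Of the 4 markers of the sorted cells none was 2-fold changed in either pair by the measure used here. Kit had 61.0, 52.9, 44.5 and 41.1, while Ly6a, which encodes Sca-1, had 4.86, 3.17, 8.80 and 4.18, lower in KO at both ages. The part that the make-up of the sorted cells has in the heavy chain values was not tested.

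Genes that rearrange and switch the locus were 2-fold changed about as seldom as genes at large. Of 20 such genes, none of 17 measured in the young pair was 2-fold changed, and 1 of 19 measured in the old pair was 2-fold lower. Over all genes tested, 1.01% were higher and 0.701% lower in young KO, and 2.66% were lower in old KO. That gene was Xrcc5 (Ku80, a DNA end-joining factor), at 15.0 in old WT against 6.62 in old KO. Rag1, a subunit of the recombinase, had 1.40 in young WT, 2.70 in young KO and 1.72 in old KO and was not listed in old WT, where heavy chain transcripts were highest. Dntt, the enzyme that adds bases at the joins, had 110, 61.9, 120 and 117.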

How the data were processed

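RNA of sorted LSK cells was measured in 4 libraries, 1 per group, prepared, per the labels' protocols, from 100 ng of total RNA each; 2 bisulfite samples were not analysed here. The deposited files give 1 FPKM value per gene with a locus, per the file headers. In the submitters' processing notes stand CASAVA, FastQC, Trimmomatic, HISAT2 2.0.4, Bismark and StringTie 1.3.0 and build mm10 (GRCm38), without role or order. Strand use and the treatment of reads that match several V segments are not stated in the sources used here, and levels of near-identical V segments, and of overlapping genes, are uncertain. The deposited values begin at an FPKM of 0.5, as seen in the files.

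Libraries were scaled by median-of-ratios over 10939 genes at 1 FPKM or more in all 4. For folds, unlisted genes were set to 0.5 FPKM, so that such a fold is a lower bound. Differences are of log2(scaled FPKM + 1), which understates the change of low genes, and genes were compared where they had a scaled FPKM of 1 or more in 1 of the 2 libraries. Of 12416 genes so measured in the young pair and 12486 in the old pair, 126 and 206 were 2-fold higher and 87 and 332 lower in KO. Shares within V or constant regions use the FPKM ratio and need no scaling.

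Counted units were recovered from the spacing of FPKM times length. Of the low values of genes under 1500 bp, 61.6%, 62.5%, 71.3% and 67.9% lay within 0.02 of a whole multiple of the best-fitting step. The order is young WT and KO, then old WT and KO. Evenly spread values would give 4% at a step fixed in advance, which does not allow for choosing the best of many steps. A unit was taken as 2 steps in the young and 1 step in the old libraries, so units are not compared across ages. Where the values of a V segment in 3 or more libraries fitted 1 length from 240 bp upward, its units were used for exact binomial (Clopper-Pearson) 95% intervals. The unlisted value, the scaling and the recovery of units were chosen after the data were seen. How often the 2-fold call errs at the low unit counts of the young V segments was not tested.

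The members and lists were chosen with earlier results of these data known. Named genes are all constant regions, listed D and J segments, the 3 highest V segments of each library, the 5 largest V rises and falls of each KO comparison at 5 or more, the highest segment of each V family by mean, Ighv5-2, Ighv6-3, Ighv11-2 and Ighv1-26, and the V segments most like Igha and Ighm. Other names were chosen after their values were seen, and 1 gene of the rearrangement list is not reported here. Alternatives covered scaling, pseudocount, filters, length and the leading segment. Python 3.11.15, pandas 2.3.3, numpy 2.4.6, scipy 1.17.1 and matplotlib 3.10.9 were used.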

Additional observations from a re-analysis of the deposited data

Results flagged for a closer look

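The KO to WT difference had opposite signs in the young and old pairs for 10 V segments that were 2-fold apart in each pair and at 5 or more scaled FPKM in a young library. In the old pair 84 of 101 measured V segments were 2-fold lower in KO. An opposite sign is thus the usual outcome for a V segment that is higher in young KO. Of the 10, only Ighv1-15 and Ighv1-64 had 5 or more in young WT, at 8.39 and 9.21. The others reached 5 in young KO alone. With 1 library per group, the difference between ages was not tested. Given as the young minus the old log2 difference, it was 7.93 for Ighv5-6 (2.47 in the young pair, -5.46 in the old pair), 6.55 for Ighv1-15 (2.24, -4.31), 6.38 for Ighv3-8 (2.03, -4.35) and 6.38 for Ighv5-4 (1.84, -4.54). It was 5.90 for Ighv5-9 (1.45, -4.45), 5.89 for Ighv1-42 (3.13, -2.76), 5.82 for Ighv1-64 (1.57, -4.25), 4.91 for Ighv1-9 (2.08, -2.83), 4.84 for Ighv1-76 (1.85, -2.99) and 3.43 for Ighv3-1 (1.41, -2.02). They belong to V families 1, 3 and 5. The heavy chain share of summed FPKM, which contains these segments, also had KO to WT ratios on opposite sides of equality. The ratio was 1.299 in the young and 0.212 in the old pair, a factor of 6.14 apart.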

How the results depend on the processing

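No paired analysis was possible because each group had 1 library, and for the same reason no library could be left out. Of 96 alternative values for 32 results, 54 stayed within the limits set for an unchanged value and 42 moved. Values are given in the order young WT, young KO, old WT, old KO unless stated. The heavy chain share of summed FPKM became 0.292%, 0.416%, 9.11% and 2.05% without Gm26917 and Gm42418, 2 abundant predicted genes, in the total, and 8.07% in old WT over genes listed in every library. With FPKM times locus length it became 0.0149%, 0.0209%, 0.826% and 0.127%, since these loci are short, and old WT kept the largest share. With that measure Igha held 39.8%, 28.5%, 85.0% and 46.8% of the constant regions and Ighm 42.7%, 64.8%, 5.55% and 48.9%. Family 1 held 62.9% in old WT against 77.4% in old KO, and the leading V segment 15.0% in young KO, 10.02% in old WT against 42.9% in old KO. Without the leading segment, family 1 held 61.1%, 62.6%, 59.3% and 61.3%, and the effective number of V segments in old KO was 43.8. The old KO excess was thus much smaller, and the order of the young pair was reversed. The segment left out was of family 1 in the old pair (Ighv1-81) but not in the young pair (Ighv6-3 in WT, Ighv11-2 in KO). Restricting to 5 FPKM or more left 31 listed genes in each young library and gave effective numbers of 21.6 for young WT and 18.9 for young KO. Family 1 then held 61.1% in young WT and 79.6% in old KO, and the leading segment 9.53% in young WT, 15.97% in young KO and 45.3% in old KO. Counts of 2-fold changes fell with a pseudocount of 5 to 12 higher and 4 lower in young KO and 2 higher in old KO. Measured from 5 scaled FPKM they were 14, 8 and 2. The old KO count of lower genes stayed between 85 and 99 under every alternative run. Scaled to the smallest V sum, old WT fell below young WT in effective number (44.1 against 45.3) and below young KO in listed genes (80 against 83). The young V values are limited by low counts, with a median of 15 units in WT and 14.5 in KO where units were recovered.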

Other observations

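Among the 7 V segments typed as pseudogenes, Ighv7-1 and Ighv7-3 were listed in all 4 libraries. Ighv7-1 had 8.11 scaled FPKM in WT and 7.77 in KO of the young pair, and 38.5 and 9.97 in the old pair, and Ighv7-3 had 2.72, 2.50, 85.1 and 15.2. The other 5 (Ighv4-2, Ighv1-2, Ighv1-21, Ighv1-30 and Ighv1-62) were listed in old WT alone, at 1.14 to 3.62. How reads of near-identical functional segments were assigned to them is not stated in the sources used here.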
